A study of Mus musculus with 6 samples.

Results

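Proteasome genes were compared between naive CD8 T cells with high and with low fluorescence of the Nur77-GFP reporter. The genes were taken by symbol, as every listed gene whose name begins with Psma, Psmb, Psmc, Psmd, Psme, Psmf or Psmg followed by a digit, which gave 48 of the 11162 genes listed. The proteasome is the protease complex that degrades ubiquitin-tagged proteins. Its barrel, the 20S core, is built from rings of alpha subunits (Psma genes) and beta subunits (Psmb genes), and the 19S regulator (Psmc and Psmd genes) recognises, unfolds and feeds in substrates. In cells of the immune system the catalytic beta subunits encoded by Psmb5, Psmb6 and Psmb7 can be replaced by the interferon-inducible subunits encoded by Psmb8, Psmb9 and Psmb10, which form the immunoproteasome, and the inducible PA28 cap (Psme1 and Psme2) can be added. The immunoproteasome is known for making peptides that are shown on MHC class I molecules. The label of the gene group fitted its members with 1 exception: Psmc3ip, taken in by its symbol, encodes a protein of meiotic recombination that is not a proteasome subunit. Psme2b is a copy of Psme2 elsewhere in the genome, and reads of such near-identical copies can be assigned to either.

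The cells had been isolated from mouse spleen by flow cytometry as CD8+ CD44lo CD62Lhi Qa2hi OT-I cells. All 6 samples came from mice that carry the transgene Tg(Nr4a1-EGFP)GY139Gsat, a reporter that couples GFP to the regulatory sequence of Nr4a1 (Nur77), which T-cell receptor signalling induces. OT-I denotes a transgenic receptor for a peptide of ovalbumin. Whether the cells also held other receptor chains was not examined. GFP reports the transgene rather than the Nr4a1 protein. There were 3 samples of GFP-hi cells and 3 of GFP-lo cells, which differed in the reporter gate as far as the labels say. The labels give neither the age of the mice nor whether samples came from separate animals, so p-values measure the spread between these samples, which could be technical.

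Levels are given in RPKM, read density along a gene relative to library depth, as deposited by the authors. The depth recovered from the low values ran from 26171000 to 35940000 reads per library, so that a gene of 1 kilobase at 1 RPKM rested on 26.2 to 35.9 reads. All 9 CD8 T cell markers had values, from 96.6 RPKM upwards for their means over the 6 libraries. Of markers of other cells, 1 of 4 CD4 T cell, 3 of 6 B cell, 2 of 6 myeloid, 2 of 4 NK cell and 1 of 5 erythroid genes had values and the rest were not analysed here. The summed level of the B cell genes was 12.6 to 14.2 RPKM over the GFP-hi libraries and 11.0 to 11.4 RPKM over the GFP-lo libraries, and that of the CD4 T cell list, which rested on Cd40lg alone, was 14.2 to 22.7 and 35.4 to 46.8 RPKM. For myeloid genes it was 18.8 to 24.7 and 18.8 to 21.0 RPKM, for NK cell genes 5.71 to 8.61 and 6.34 to 8.34 RPKM, and for the erythroid gene 0.047 to 1.94 and 0.393 to 1.48 RPKM. The part of these genes in the results was not tested. In bulk samples, fewer cells of a type and less RNA per cell cannot be told apart.

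The question was whether the constitutive and the inducible parts of the proteasome differed between GFP-hi and GFP-lo cells. All 14 constitutive core genes and all 17 genes of the 19S regulator taken by symbol had a higher mean RNA level in GFP-hi cells. The rise was 24.3% at most, while the 5 immunoproteasome genes were split, with 2 higher and 3 lower. Of these 5, only Psmb9 kept its sign in all 18 alternatives of processing and samples. Outside the symbol rule, the 19S gene Sem1 also had a higher mean (log2 difference 0.20) and Adrm1 did not (-0.00059). Among the members, the difference was clearest for the alpha subunit genes Psma5 and Psma4, which rose by 24.3% and 23.3% in mean RPKM. They were the 2 members that passed the test over all genes. The 3 inducible catalytic genes Psmb8, Psmb9 and Psmb10 had log2 differences of zero or below, and the 2 PA28 genes lay close to zero.

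All 48 members passed the filter of a mean of at least 1 RPKM and were tested with 9351 genes in all (limma on log2(RPKM + 1), Benjamini-Hochberg adjustment over all genes tested). The log2 difference of a gene is the mean of its GFP-hi libraries minus that of its GFP-lo libraries on that scale. Of the members, 2 (4.17%) had an adjusted p under 0.05, both higher in GFP-hi, against 3.95% of all genes in either direction, 2.46% higher and 1.49% lower, so the share of calls was close to the background. That count depended on the setting: it was 12 with array quality weights and 0 or 1 when any one library was left out. It was 0 in 4 libraries described below with the heat-shock genes. The share of all genes called, in either direction, was 13.7% with those weights and 1.08% in those 4 libraries. That share ran from 1.42% to 3.37% when 1 library was left out. At an unadjusted p under 0.05, 19 members (39.6%) were higher in GFP-hi, against 12.9% of all genes, and 1 (2.08%) was lower, against 7.3%. The 3 GFP-hi libraries all lay above the 3 GFP-lo libraries for 30 members (62.5%), against 17.1% of all genes, and below them for 2 (4.17%), against 9.84%. In 43 of 48 members the log2 difference was positive (89.6%), as it was in 55.5% of all genes tested. The median log2 difference was 0.13 over the members and 0.02 over all genes, and no member reached a 2-fold difference. The members varied little between libraries of a group, with a median residual SD of 0.07 log2 units against 0.09 over all genes.

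**Figure D1:**
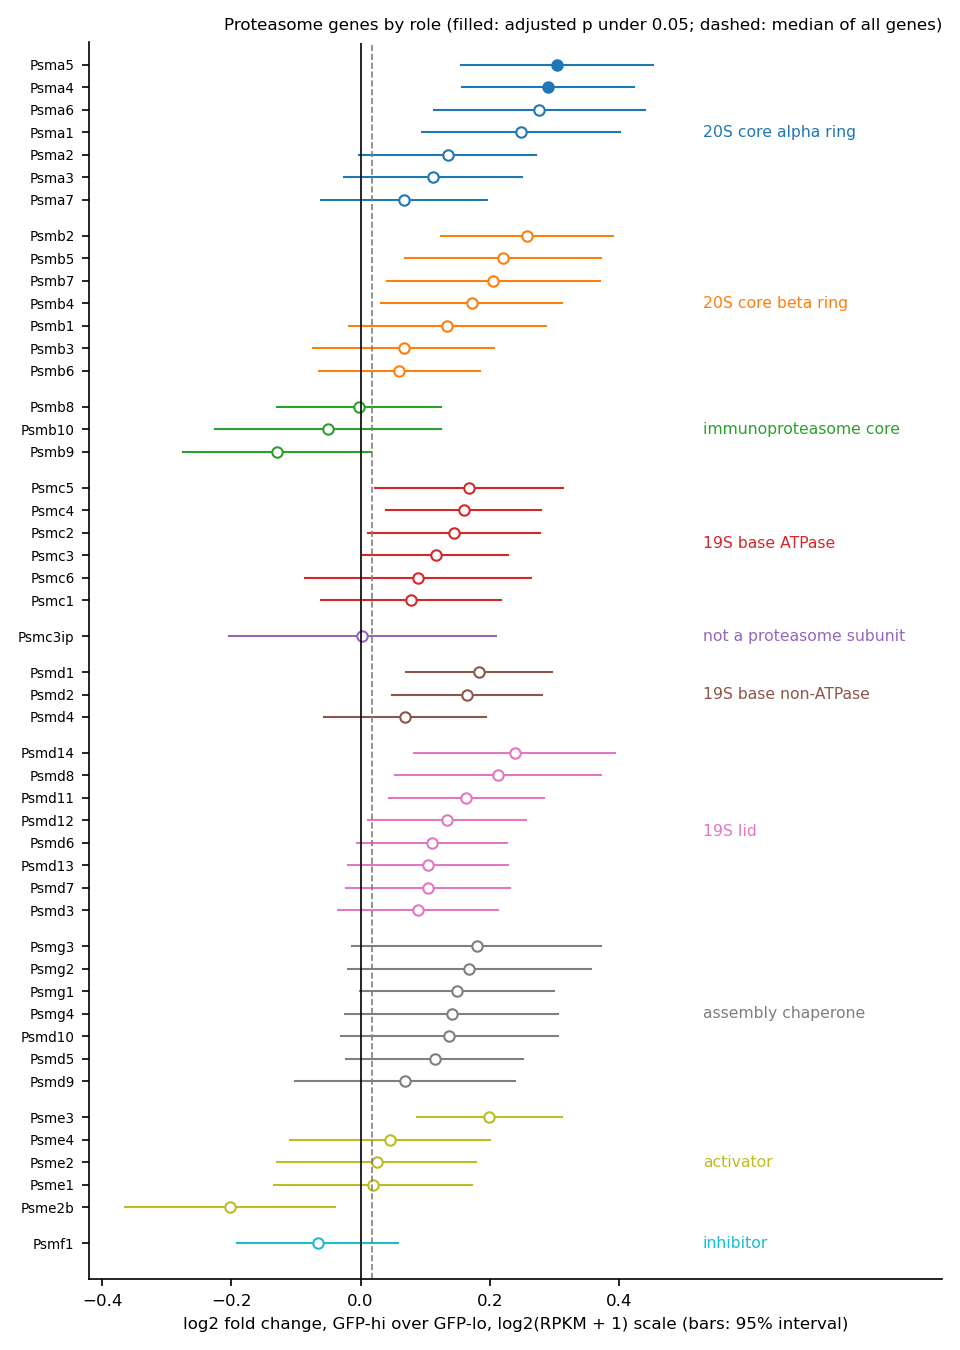
Log2 difference (horizontal axis, GFP-hi over GFP-lo) of the 48 genes, grouped by role, with 95% intervals from limma. Filled points (Psma5 and Psma4) have an adjusted p under 0.05, and the dashed line is the median of all genes tested (0.02). The inducible catalytic genes sit at or below zero, while all constitutive core and 19S genes shown sit above zero.

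The alpha ring forms the outer gates of the core, and its 7 genes had the largest median log2 difference (0.25) among the parts of the complex. Psma5 (Entrez 26442, chr3:108256926-108279952), which encodes an alpha subunit, had 48.1, 56.0 and 51.5 RPKM in the GFP-hi libraries and 41.0, 42.1 and 42.1 RPKM in the GFP-lo libraries. The lowest GFP-hi library thus lay well above the highest GFP-lo library. With means of 51.9 ± 3.99 against 41.7 ± 0.635 RPKM (SD, n = 3 each) Psma5 rose by 0.30 on the log2 scale (standard error 0.064, limma adjusted p = 0.041). Psma4 (Entrez 26441, chr9:54950781-54958034), another subunit of this ring, had 30.5, 33.8 and 31.2 RPKM against 25.0, 26.1 and 26.4 RPKM. Here too the groups did not overlap, and Psma4 rose by 0.29 on the log2 scale (standard error 0.058, limma adjusted p = 0.033). Neither call held without GFP-hi replicate 3 or without any one of the 3 GFP-lo libraries. Psma5 also lost it without GFP-hi replicate 2 (adjusted p = 0.055) and Psma4 without GFP-hi replicate 1 (adjusted p = 0.073), and over all 18 alternatives the adjusted p ran from 0.0061 to 0.14 for Psma5 and from 0.0058 to 0.13 for Psma4. Their log2 differences stayed between 0.22 and 0.36 and between 0.21 and 0.32.

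Psma6 had the highest level of the ring, with 62.7, 72.3 and 63.3 RPKM in the GFP-hi libraries, and the GFP-lo libraries had 51.3, 55.9 and 55.8 RPKM. Its log2 difference of 0.28 did not pass the threshold (limma, adjusted p = 0.075), although the groups were separate. Psma1 was similar, with 47.6, 55.7 and 50.9 RPKM against 41.7, 44.2 and 43.2 RPKM (log2 difference 0.25, limma adjusted p = 0.086). The other 3 members of the ring had smaller values, 0.13 for Psma2, 0.11 for Psma3 and 0.07 for Psma7, and of these only Psma7 had overlapping groups. Summed over the 7 genes, the ring reached 303, 343 and 315 RPKM in the GFP-hi libraries, and the GFP-lo libraries had 265, 281 and 280 RPKM, a mean that was 16.3% higher.

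The beta ring carries the protease sites. Among its 4 subunits without a protease site, Psmb2 had the highest level of the whole core and the largest log2 difference of the ring. It had 76.4, 84.1 and 80.2 RPKM in the GFP-hi libraries, and the GFP-lo libraries had 64.9, 69.9 and 66.0 RPKM. With no overlap, it came just short of the threshold (log2 difference 0.26, standard error 0.058, limma adjusted p = 0.052). It passed under quantile normalization (adjusted p = 0.046), robust eBayes (0.044) and array quality weights (0.011). Psmb4 (0.17) and Psmb1 (0.13) also had separate groups, whereas those of Psmb3 (0.07) overlapped. Each subunit position is filled equally often in the assembled core, and a catalytic position can hold the constitutive or the inducible subunit. Over the constitutive core genes, mean RPKM over the 6 libraries ranged from 12.3 for Psmb7, a catalytic gene, to 73.6 for Psmb2. That range rests on the gene lengths behind the RPKM, which are not given.

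The 3 constitutive catalytic genes were then set against their inducible counterparts. Psmb5 (Entrez 19173, chr14:54614120-54617995), which encodes the chymotrypsin-like subunit, had 39.3, 43.9 and 39.8 RPKM in the GFP-hi libraries, and the GFP-lo libraries had 36.8, 35.3 and 33.0 RPKM. Those groups did not overlap, without passing the threshold (log2 difference 0.22, 95% interval from 0.07 to 0.37, limma adjusted p = 0.12). Psmb8 (Entrez 16913, chr17:34198195-34201454), its inducible replacement, had 65.2, 71.6 and 68.3 RPKM against 66.6, 68.7 and 70.0 RPKM. The GFP-lo values lay within the range of the GFP-hi values, with means of 68.3 ± 3.21 and 68.4 ± 1.72 RPKM (SD, n = 3 each), and their log2 difference rounds to zero. Its 95% interval reached from -0.13 to 0.13 (limma, adjusted p = 0.99). The estimate for Psmb5 lay outside this interval, but the intervals of Psmb5 and Psmb8 overlapped.

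Psmb7, which encodes the trypsin-like subunit, had 12.9, 13.8 and 13.0 RPKM in the GFP-hi libraries, and the GFP-lo libraries had 10.4, 12.4 and 11.3 RPKM. This was the lowest level of any core gene, and the groups were separate (log2 difference 0.21, limma adjusted p = 0.16). Psmb10 (Entrez 19171, chr8:105935728-105938392), the inducible gene for the same site, had 30.6, 37.6 and 35.5 RPKM against 35.5, 36.0 and 35.6 RPKM. GFP-hi replicate 1 was the lowest of all 6 libraries and GFP-hi replicate 2 the highest, and the log2 difference was -0.05 with a 95% interval from -0.23 to 0.13 (limma, adjusted p = 0.78).

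Psmb6, which encodes the caspase-like subunit, differed least among the constitutive catalytic genes, with 39.1, 42.6 and 39.8 RPKM against 38.0, 39.2 and 39.2 RPKM. One GFP-hi library lay among the GFP-lo values (log2 difference 0.06, limma adjusted p = 0.59). Psmb9 (Entrez 16912, chr17:34182030-34187330), its inducible counterpart and a neighbour of Psmb8 in the MHC region, had 21.2, 24.0 and 22.9 RPKM in the GFP-hi libraries, and the GFP-lo libraries had 24.8, 23.9 and 26.0 RPKM. Its log2 difference of -0.13 had a 95% interval from -0.28 to 0.02 and did not pass the threshold (limma, adjusted p = 0.31).

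**Figure D2:**
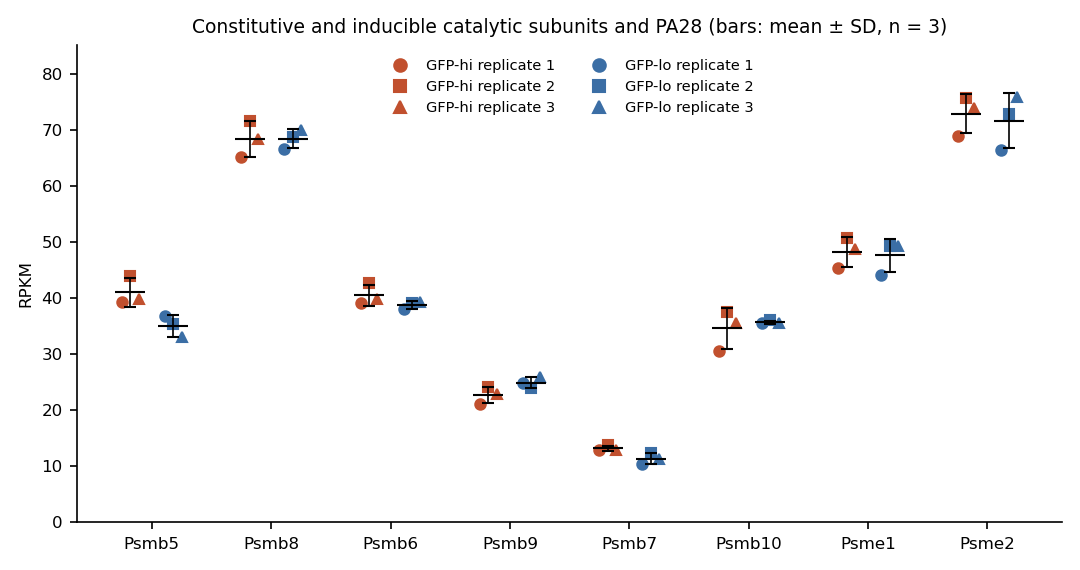
RPKM (vertical axis) of the constitutive catalytic genes Psmb5, Psmb6 and Psmb7, each beside its inducible counterpart, and of the PA28 genes Psme1 and Psme2. Points are the 3 GFP-hi (red) and 3 GFP-lo (blue) libraries and bars the mean ± SD; the GFP-hi points of Psmb5 and Psmb7 sit above all GFP-lo points, and those of Psmb8, Psmb9, Psmb10, Psme1 and Psme2 overlap them.

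Since RPKM is scaled by length, the inducible gene can be divided by its constitutive counterpart within each library, which also removes any scaling of the library as a whole. The ratio of Psmb8 to Psmb5 was 1.66, 1.63 and 1.72 in GFP-hi and 1.81, 1.95 and 2.12 in GFP-lo libraries. For Psmb9 to Psmb6 it was 0.541, 0.564 and 0.576 against 0.653, 0.611 and 0.663. The ratio of Psmb10 to Psmb7 was 2.37, 2.73 and 2.74 against 3.42, 2.90 and 3.15. All 3 ratios were lower in every GFP-hi library than in any GFP-lo library. On the log2 scale the differences were -0.23, -0.20 and -0.27, each with an exact two-sided permutation p of 0.10, the smallest that 3 against 3 libraries allow, so none could pass a threshold of 0.05. Leaving out each library in turn, which was added once the values were known, the differences ran from -0.28 to -0.17, from -0.23 to -0.17 and from -0.33 to -0.21. Of the summed RPKM of the 6 catalytic genes, the inducible genes held 57.0% ± 0.826 in GFP-hi and 60.2% ± 0.818 in GFP-lo libraries (SD, n = 3 each). The inducible genes thus held the larger part of the deposited RPKM in both populations. The gene lengths behind the RPKM are not given, so levels of different genes compare only as far as those lengths hold. A fixed length of a gene cancels in the log2 differences of the ratios between groups. A trend of values with length that differs between libraries does not, and the ratios were not computed with such a trend removed. For single genes with it removed, the log2 differences were -0.06 for Psmb8 and 0.13 for Psmb5. They were -0.16 for Psmb9 and -0.03 for Psmb6, and -0.13 for Psmb10 and 0.17 for Psmb7.

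**Figure D3:**
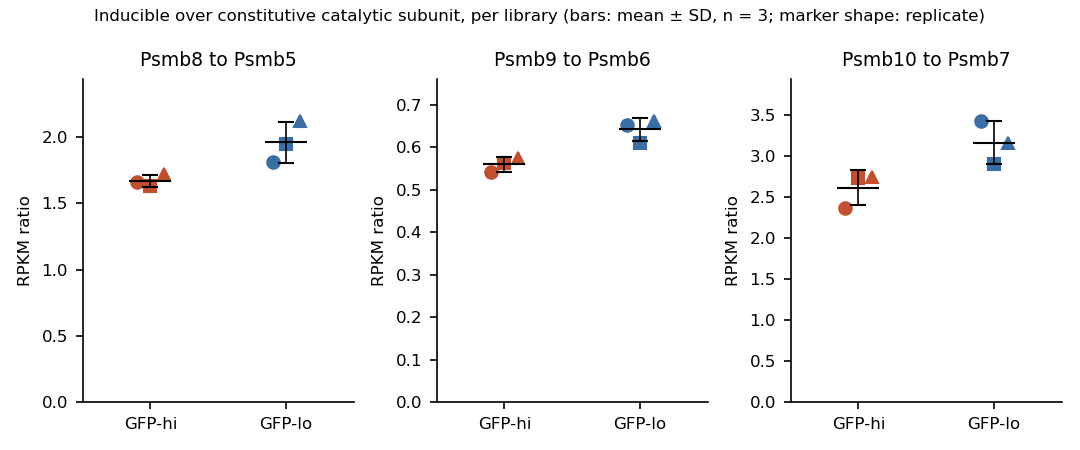
Ratio of the RPKM of each inducible catalytic gene to that of its constitutive counterpart (vertical axes, starting at 0) in each GFP-hi (red) and GFP-lo (blue) library, with the mean ± SD of 3. In all 3 panels the GFP-hi libraries sit below the GFP-lo libraries, for example 1.63 to 1.72 against 1.81 to 2.12 for Psmb8 to Psmb5.

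The caps of the core came next. PA28, an ATP-independent activator that is induced by interferon gamma together with the inducible subunits, is encoded by Psme1 (alpha) and Psme2 (beta). Psme1 had 45.3, 50.6 and 48.7 RPKM in the GFP-hi libraries, and the GFP-lo libraries had 44.2, 49.3 and 49.3 RPKM, which overlapped (log2 difference 0.02, 95% interval from -0.13 to 0.17, limma adjusted p = 0.91). Psme2 was the more abundant, with 68.9, 75.7 and 73.8 RPKM against 66.3, 72.8 and 75.7 RPKM (log2 difference 0.02, 95% interval from -0.13 to 0.18, limma adjusted p = 0.88). The log2 differences of both genes were negative with quantile normalization, with TMM scaling (trimmed mean of M values) and in 4 further alternatives, so no direction can be given. The copy Psme2b had 53.2, 51.6 and 54.2 RPKM against 66.1, 55.4 and 62.3 RPKM. It was thus lower in each GFP-hi library without passing the threshold (log2 difference -0.20, limma adjusted p = 0.17). Because reads could be shared between the copies, their sum was also taken. It was 126 ± 3.18 RPKM for GFP-hi and 133 ± 4.95 RPKM for GFP-lo libraries (SD, n = 3 each), with the highest GFP-hi library at 128.0 RPKM just below the lowest GFP-lo library at 128.2 RPKM. Over the 5 genes Psmb8, Psmb9, Psmb10, Psme1 and Psme2 the median log2 difference rounded to zero, 2 values were positive and 3 negative, none passed the test (0 also at an unadjusted p under 0.05) and none had separate groups. Over the 14 constitutive core genes the median was 0.19 and all 14 values were positive. Of these genes 2 passed the test, beside 2.46% of all genes called higher. The groups of 11 (78.6%) were separate, with GFP-hi above, against 17.1% of all genes.

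A different activator, PA28 gamma, is nuclear and is not part of the interferon response. Its gene Psme3 had 75.4, 73.3 and 75.7 RPKM in the GFP-hi libraries, and the GFP-lo libraries had 63.3, 65.4 and 66.3 RPKM. The groups were far apart relative to their spread, though the threshold was missed (log2 difference 0.20, standard error 0.049, limma adjusted p = 0.067). Psme4, which encodes the activator PA200, had overlapping groups (0.05, adjusted p = 0.77). Psmf1 encodes the inhibitor PI31, and at 6.63, 6.99 and 6.71 RPKM against 7.09, 7.29 and 7.05 RPKM it was the other member whose GFP-hi libraries all lay below the GFP-lo libraries. That difference was small, at -0.07 on the log2 scale (limma, adjusted p = 0.56).

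In the 19S regulator all 17 genes taken by symbol had positive log2 differences, from 0.07 to 0.24 with a median of 0.13. None passed the test over all genes, beside 2.46% of all genes called higher. At an unadjusted p under 0.05 (limma) 10 were higher, against 12.9% of all genes. The groups of 14 (82.4%) were separate, with GFP-hi above, against 17.1% of all genes. All were measured in the same 6 libraries, so the genes are not independent of each other. The 8 lid genes taken by symbol were the most uniform, since the GFP-hi libraries lay above the GFP-lo libraries in every one of them. The 19S gene Sem1, which the symbol rule leaves out, had overlapping groups. Summed over the 8 genes, the mean level of the GFP-hi libraries was 251 ± 10.2 RPKM and that of the GFP-lo libraries 226 ± 0.511 RPKM (SD, n = 3 each). Psmd14, which encodes the deubiquitinase that removes ubiquitin chains from substrates, led the lid with 33.6, 37.6 and 34.5 RPKM against 27.6, 31.2 and 30.4 RPKM (log2 difference 0.24, standard error 0.067, limma adjusted p = 0.10). Psmd8 (0.21), Psmd11 (0.16), Psmd12 (0.13), Psmd6 (0.11), Psmd13 (0.10), Psmd7 (0.10) and Psmd3 (0.09) followed by log2 difference.

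The base of the regulator holds a ring of 6 ATPases that unfold substrates. Psmc5 was the most abundant of all 48 genes, with 82.6, 93.9 and 86.3 RPKM in the GFP-hi libraries, and the GFP-lo libraries had 74.6, 79.3 and 79.5 RPKM. Its groups were separate (log2 difference 0.17, limma adjusted p = 0.19), as were those of Psmc4 (0.16), Psmc2 (0.14) and Psmc3 (0.12), whereas Psmc6 (0.09) and Psmc1 (0.08) overlapped. Of the scaffold genes, Psmd1 had 28.5, 28.6 and 29.0 RPKM against 25.7, 25.4 and 24.4 RPKM, with the least spread within GFP-hi of the 3 base genes without ATPase activity (log2 difference 0.18, limma adjusted p = 0.086). Psmd2, the other scaffold, had 52.9, 53.3 and 54.5 RPKM against 49.5, 46.3 and 47.2 RPKM (0.16, adjusted p = 0.12). The ubiquitin receptor gene Psmd4 had overlapping groups (0.07, adjusted p = 0.54).

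Assembly chaperones, which help to build the complex and leave it afterwards, had positive log2 differences in all 7 genes. The values were 0.18 for Psmg3, 0.17 for Psmg2, 0.15 for Psmg1 and 0.14 for Psmg4, which assist the core, and 0.14 for Psmd10, 0.11 for Psmd5 and 0.07 for Psmd9, which assist the base. None passed the test (limma, adjusted p from 0.25 to 0.66). At an unadjusted p under 0.05 none was higher, against 12.9% of all genes. In 4 of the 7 (57.1%) the groups were separate, with GFP-hi above, against 17.1% of all genes. Psmc3ip, the gene that is no proteasome subunit, was at 1.38 ± 0.217 and 1.37 ± 0.119 RPKM (SD, n = 3 each) and had the lowest level of the 48 genes.

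The summed levels put the parts side by side. The 14 constitutive core genes summed to 582, 650 and 601 RPKM in the GFP-hi libraries against 517, 545 and 541 RPKM, a mean 14.4% higher, with no overlap. The 17 genes of the 19S regulator came to 607 ± 24.7 against 549 ± 2.85 RPKM (SD, n = 3 each), 10.5% higher, and the 7 chaperone genes to 110 ± 8.22 against 99.2 ± 3.43 RPKM. The sums of the 5 immunoproteasome genes, 247 ± 14.3 and 248 ± 9.89 RPKM, differed by less than the spread between libraries. All genes tested differed by 0.63% in their summed RPKM.

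**Figure D4:**
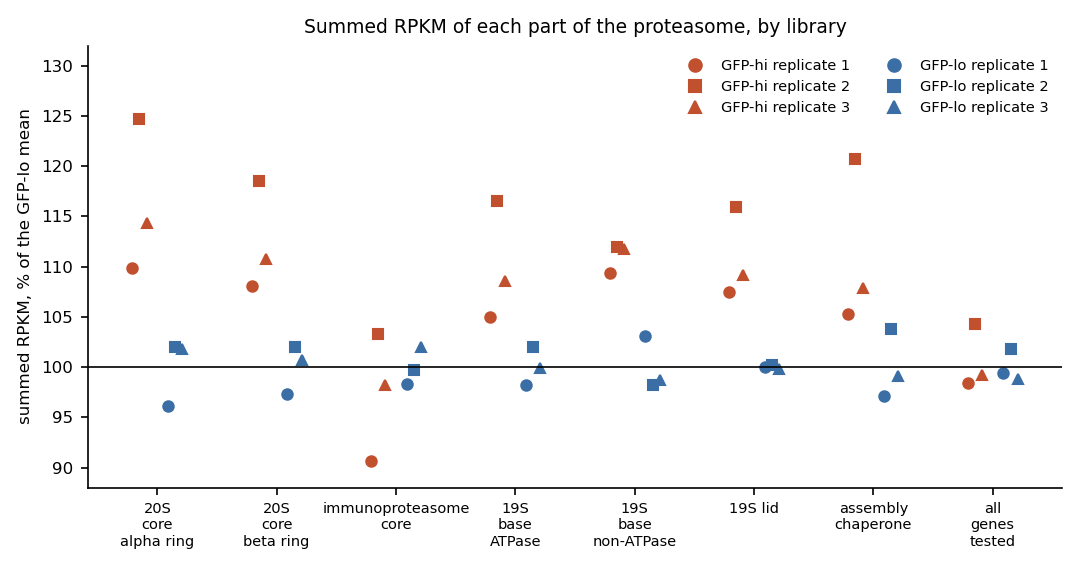
Summed RPKM of the genes of each part of the proteasome in each library, as a percentage of the GFP-lo mean (vertical axis, which does not start at 0), for GFP-hi (red) and GFP-lo (blue) libraries. The GFP-hi libraries sit above the GFP-lo libraries for both core rings, the 19S parts and the chaperones, and overlap them for the immunoproteasome core and for all genes tested. The square of GFP-hi replicate 2 is the highest point of each column.

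One library stood out among these values. GFP-hi replicate 2 was the highest of the 6 libraries for 38 of the 48 genes, and GFP-hi replicate 1 the lowest of its group for 40. The heat-shock genes Hspa1a and Hspa1b were at 1100 and 1904 RPKM in GFP-hi replicate 2 and at 1234 and 2133 RPKM in GFP-lo replicate 2, and at most at 235 and 503 RPKM in the other 4 libraries. In those other 4 libraries the median log2 difference of the members was 0.10 (0.16 for the constitutive core), and 42 of 48 values were positive. None of the members passed the test there, beside 1.08% of all genes. In 34 members (70.8%) both GFP-hi libraries lay above both GFP-lo libraries, against 26.8% of all genes, a count that was added once the values were known. The 3 catalytic ratios differed there by -0.22, -0.24 and -0.37 on the log2 scale, close to or larger in size than over all 6 libraries.

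Members have shorter transcripts than most genes tested. The longest annotated transcript had a median of 1851 bases over the 48 members and of 3331 bases over all genes tested. With the trend of values with length removed from each library, the median of the members was 0.08 and that of the constitutive core 0.11, against a median of -0.0026 over all genes. Psma4 and Psma5 still passed the test, 37 of 48 values were positive, and the immunoproteasome median was -0.07. Over all genes, 230 were called higher and 139 lower as deposited, 201 and 189 with TMM scaling, and 240 and 248 with the length trend removed.

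Promoter sequences were examined because the constitutive genes had differences in one direction and the inducible genes did not. RefSeq windows (build GRCm38.p6, the assembly also called mm10) from 250 bases before to 50 after an annotated start were matched for 41 of the 48 genes, in 44 windows. TGACNNNGC and TGAGNNNGC are forms of the antioxidant response element, the site of Nfe2l1 (Nrf1), the factor that raises proteasome genes when proteasome activity is low. The interferon-stimulated response element is searched here as GAAA repeated after any 2 bases. Each was searched on both strands. The 3 windows below are those of the 2 genes that passed the test and of the constitutive catalytic gene Psmb5, printed 5′ to 3′ on the gene's strand with matches to these motifs in capitals (a match on the other strand appears as its reverse complement). They lie at chr9:54950609-54950908 (+ strand) for Psma4, chr3:108256676-108256975 (+) for Psma5 and chr14:54617946-54618245 (- strand) for Psmb5.
Psma4: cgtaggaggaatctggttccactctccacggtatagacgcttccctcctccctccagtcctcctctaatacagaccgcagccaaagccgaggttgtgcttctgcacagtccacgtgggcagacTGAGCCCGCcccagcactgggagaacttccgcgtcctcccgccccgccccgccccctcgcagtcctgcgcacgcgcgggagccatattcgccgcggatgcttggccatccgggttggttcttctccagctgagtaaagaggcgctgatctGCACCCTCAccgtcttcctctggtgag
Psma5: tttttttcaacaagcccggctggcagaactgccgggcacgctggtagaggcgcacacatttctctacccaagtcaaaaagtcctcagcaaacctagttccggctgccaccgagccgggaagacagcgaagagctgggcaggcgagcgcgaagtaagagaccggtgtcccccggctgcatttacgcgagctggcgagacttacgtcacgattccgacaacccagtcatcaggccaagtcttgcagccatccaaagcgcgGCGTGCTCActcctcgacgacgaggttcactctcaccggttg
Psmb5: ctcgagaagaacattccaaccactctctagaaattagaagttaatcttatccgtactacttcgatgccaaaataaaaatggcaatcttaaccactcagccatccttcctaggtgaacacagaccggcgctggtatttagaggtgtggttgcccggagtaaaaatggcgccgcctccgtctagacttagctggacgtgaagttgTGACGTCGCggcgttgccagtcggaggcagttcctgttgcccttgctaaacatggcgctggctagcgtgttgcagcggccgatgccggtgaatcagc

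In these windows Psma4 held TGAGNNNGC at 2 places and Psma5 at 1, and Psmb5 held TGACNNNGC at 1, with no overlap between motifs. Over the members, TGAGNNNGC was in 14 of 44 windows (31.8%), against 19.6% of the 9587 windows of all genes tested, and TGACNNNGC was in 6 (13.6%), against 14.4%. One or the other was in 18 member windows (40.9%), against 31.1% of all windows, and in windows of 7 of the 11 constitutive core genes matched and of 0 of the 5 immunoproteasome genes. The interferon-stimulated response element was in 5 of 44 member windows (11.4%), against 3.24% of all windows. Those windows belong to the constitutive core gene Psmb3, the immunoproteasome gene Psme1, and Psmd4, Psmd9 and Psmg4, so it was in 1 of the 11 constitutive core genes and 1 of the 5 immunoproteasome genes matched. A match describes the letters of the window, and binding was not measured.

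Genes that work with the proteasome were compared from 3 lists. Of 26 genes tested for assembly, transcription and other factors of the proteasome, none passed the test, with 14 positive and 12 negative log2 differences. The 26 include Adrm1 and Sem1, 19S genes whose symbols the rule does not take in. Adrm1 had 18.3 ± 0.557 against 18.3 ± 1.43 RPKM with overlapping groups (log2 difference -0.00059, limma adjusted p = 0.99). Sem1 had a log2 difference of 0.20, also with overlapping groups (limma, adjusted p = 0.23). At an unadjusted p under 0.05, 6 of the 26 were higher and 2 lower, beside 12.9% and 7.3% of all genes. Pomp, the chaperone that completes the core, had 14.6, 16.5 and 15.4 RPKM in the GFP-hi libraries, and the GFP-lo libraries had 11.6, 13.8 and 13.9 RPKM, which did not overlap (log2 difference 0.23, limma adjusted p = 0.17). Nfe2l1 had overlapping groups and a value of -0.10 (limma, adjusted p = 0.58). Of 17 genes of MHC class I peptide processing, 1 passed the test as higher and none as lower, beside 2.46% and 1.49% of all genes. Their log2 differences were positive in 9 and negative in 8. At an unadjusted p under 0.05 there was 1 each way, beside 12.9% higher and 7.3% lower of all genes. The gene called, Blmh, which encodes a cytosolic aminopeptidase, had 11.2, 11.5 and 10.5 RPKM against 8.58, 8.73 and 9.26 RPKM (log2 difference 0.29, limma adjusted p = 0.038). Tapbpl, whose protein (TAPBPR) edits the peptides of MHC class I molecules, went the other way without passing the threshold, with 69.0, 74.1 and 74.0 RPKM against 86.5, 82.8 and 84.7 RPKM and no overlap (log2 difference -0.22, limma adjusted p = 0.060). The peptide transporter genes Tap1 (-0.02, adjusted p = 0.87) and Tap2 (-0.11, adjusted p = 0.28), which lie beside Psmb8 and Psmb9, did not pass the threshold. Of 11 regulators of the inducible genes tested, from the interferon and NF-kB pathways, 4 had positive and 7 negative log2 differences. In the test over all genes 1 passed as lower and none as higher, beside 1.49% and 2.46% of all genes. At an unadjusted p under 0.05 there were 3 lower and 0 higher, beside 7.3% and 12.9% of all genes. The gene called was Ifngr1, which encodes the ligand-binding chain of the interferon gamma receptor, with 48.5, 52.1 and 52.2 RPKM in the GFP-hi libraries, and the GFP-lo libraries had 73.4, 73.1 and 77.4 RPKM (log2 difference -0.54, standard error 0.055, limma adjusted p = 0.0024). The other 2 did not pass the threshold, but in both every GFP-hi library lay below every GFP-lo library, as in 9.84% of all genes tested. Irf1, which encodes a transcription factor that interferon gamma induces, had 55.3, 68.4 and 56.8 RPKM against 76.8, 80.5 and 70.8 RPKM (log2 difference -0.34, limma adjusted p = 0.083). Rela, which encodes the p65 subunit of NF-kB, had 36.2, 37.6 and 36.4 RPKM against 45.05, 41.70 and 42.01 RPKM (log2 difference -0.22, limma adjusted p = 0.065).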

How the data were processed

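RNA of 3 GFP-hi and 3 GFP-lo samples was measured. Per the labels' protocols, RNA of sorted cells was amplified with the SMART-seq v4 kit and made into libraries with the Nextera XT kit. RPKM values were deposited by the authors in 1 column per sample, per the file headers. STAR and mm10 are named in the submitters' processing notes, with no role or version; the read counter, the annotation and the rule for listing genes are not given in the sources used here, nor whether counting used strand, so reads of overlapping genes cannot be told apart. Each column name holds the title of 1 sample, and replicate numbers follow record order and pair no samples.

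Depth was recovered from the step that 1 read makes in low RPKM values of 727 listed genes with a single GENCODE M21 transcript; 93.3% to 94.9% of these values came within 0.1 of whole reads. Genes with a mean of at least 1 RPKM were tested with limma 3.58.1 (R 4.3.3; lmFit, eBayes with trend, two-sided) on log2(RPKM + 1), a scale that understates changes of low genes, with Benjamini-Hochberg adjustment and a threshold of 0.05. In 5 simulations of this comparison over 9351 genes, 71.7% of 200 genes changed by 0.5 (log2) were recovered and 5.24% of calls were false. Noise was drawn for each gene separately, without shifts shared by a whole library. The members' log2 differences were smaller, at most 0.30 with a median of 0.13, so this recovery does not apply to them. Ratios were tested with an exact permutation test (scipy 1.17.1) and figures drawn with matplotlib 3.10.9. Gene coordinates are those of RefSeq on GRCm38.p6.

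All members were named, with per-library values for the immunoproteasome genes, their constitutive counterparts, the members called, those with the largest changes and, chosen after their values were seen, further members that lead a role. From the lists of working partners, Pomp, Nfe2l1, Tap1, Tap2 and called genes were named, and Tapbpl, Irf1 and Rela after their values were seen. One further promoter motif that was searched is not reported here. Hspa1a and Hspa1b were named because of their values. The members, roles and lists were chosen with earlier results of these data known, so no test over a list is given. Alternatives changed the pseudocount (0.1, 0.5), the filter (none, 5 RPKM), the scaling (median, quantile, TMM, which trims 30% of genes on M and 5% on A), the eBayes settings (without trend, robust), array quality weights, the length trend (lowess) and the samples.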

Additional observations from a re-analysis of the deposited data

How the results depend on the processing

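Differences are on the log2 scale. The cause was not tested unless one is named. The number of members called higher in GFP-hi, 2 in the main test, was 1 without the trend in eBayes, 3 with quantile normalization and with robust eBayes, 12 with array quality weights, 0 in the 4 libraries other than GFP-hi replicate 2 and GFP-lo replicate 2, and from 0 to 1 when 1 library was left out. No member was called lower in any of the 18 alternatives. Over all genes the count higher, 230, was 119 with a mean of at least 5 RPKM, where fewer genes are tested, 783 with array quality weights, 52 in those 4 libraries and from 71 to 187 without 1 library. The count lower, 139, was 83, 499, 49 and from 59 to 128 in the same order, and 248 with the length trend removed. Of 863 member values under the alternatives, 811 kept their direction and side of the threshold, 27 changed sign, 12 gained and 13 lost the call. The median of the members moved beyond the spread between libraries (0.048) with the length trend removed, to 0.077. In that setting the sign changed for Psma7 (-0.0017), Psmb3 (-0.00304), Psmb6 (-0.032), Psmc3ip (-0.075), Psme2 (-0.068) and Psme1 (-0.036). With quantile normalization it changed for Psmc3ip (-0.032), Psme2 (-0.00598) and Psme1 (-0.00308), with trimmed mean of M values scaling for Psmc3ip (-0.013), Psme2 (-0.0026) and Psme1 (-0.0078), and with array quality weights for Psmc3ip (-0.074), Psme2 (-0.0015) and Psme1 (-0.012). Psmc3ip was also negative with each sample centred on its median (-0.0016) and in the 4 libraries (-0.036). Leaving out 1 library gave ranges across zero for Psmb8 -0.036 to 0.031, Psmb10 -0.11 to 0.033, Psmc3ip -0.071 to 0.049, Psme1 -0.032 to 0.062 and Psme2 -0.029 to 0.066. The 37 members with a positive value in every alternative include all constitutive core and 19S genes other than Psma7, Psmb3 and Psmb6. Paired samples were not assumed, since the labels give no pairing. With 3 libraries a group, their number limits the precision.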
